A study of Mus musculus with 2 samples.

Results

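Newborn neurons were selected from single-cell transcriptomes of dissected inter-limb mouse somites as cells that carried at least 4 unique molecular identifiers (UMIs, the counted mRNA molecules) of Elavl3, Elavl4 and Stmn2, from at least 2 of these genes, and no UMI of the somite gene Meox1, the endothelial gene Cdh5 or the muscle gene Myog. Elavl3 and Elavl4 encode neuronal RNA-binding proteins, and Stmn2 encodes a microtubule regulator of growing axons. Of 9851 cells kept at E9.5, 211 met the rule (2.14%, 95% Clopper-Pearson interval 1.87 to 2.45), and of 9595 kept at E11.5, 402 met it (4.19%, 3.80 to 4.61). In all, 613 of 19446 kept cells were selected. Kept cells had at least 200 and fewer than 6500 detected genes and under 15% mitochondrial UMIs. Before the exclusions 279 and 460 cells met the threshold, of which 65 and 44 carried Meox1, 3 and 4 Cdh5 and 0 and 16 Myog.

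The study dissected inter-limb somites from wild-type C57BL/6 embryos at 9.5 and 11.5 days and pooled 3 embryos per stage into a single 10x Genomics library. The E9.5 library held 10121 barcodes with 149368952 UMIs, and the E11.5 library held 10167 barcodes with 136655763 UMIs, each over 27998 genes. The libraries shared 30 barcode sequences, and 0 of the selected cells carried a shared one. With 1 library per stage no test between stages was possible, cells are not replicates, and every interval below covers counting error only; stage cannot be told apart from library, litter and dissection.

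Newborn neurons arise when a dividing progenitor of the neural tube or of a neural crest ganglion leaves the cell cycle. Proneural factors of the Neurog and Neurod families start the neuronal programme, Notch effectors such as Hes5 hold progenitors back, and cytoskeletal genes such as Tubb3, Dcx and the neurofilaments follow. Combinations of homeodomain factors then mark the neuron class: Mnx1 with Isl1 and Lhx3 in motor neurons, Pou4f1 with Isl1 in dorsal root ganglion neurons, Phox2a in visceral and sympathetic neurons.

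In the GRCm38 (mm10) annotation, Elavl3 lies at chr9:22015005-22052023, Elavl4 at chr4:110203722-110351909 and Stmn2 at chr3:8509360-8561606. The genes used to split the cells, Isl1 (chr13:116298281-116309689), Mnx1 (chr5:29473034-29478470) and Pou4f1 (chr14:104461676-104467999), are protein-coding. Levels are given as UMIs of a gene per 1000000 UMIs of the cells concerned (UPM), with the exact Poisson interval in brackets. A gene was called higher or lower when its UPM differed 2-fold or more, a rule of size and not of significance.

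Median depth of the selected cells was 9483 UMIs over 3069 genes in the E9.5 library, and 9657 UMIs over 3294 genes in the E11.5 library. They stood at different distances from the threshold: the median cell had 7 UMIs of the 3 selecting genes at E9.5 and 26 at E11.5. Just inside, 50 cells at E9.5 and 21 at E11.5 had a sum of 4, and just outside, 78 and 26 cells had a sum of 3. The levels of the selecting genes themselves, given only as a description of the choice, were 216 and 519 UPM for Elavl3, 363 and 674 UPM for Elavl4, and 200 and 2526 UPM for Stmn2.

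At E11.5 the neuronal label held for most cells. Tubb3, the neuronal tubulin, had a UMI in 387 of 402 cells, and Dcx, a microtubule protein of migrating neurons, in 327 of 402. In neural progenitor-type cells of that library, defined below, Tubb3 had a UMI in 43 of 83 and Dcx in 1 of 83. A UMI of Tubb3 alone therefore does not mark a neuron there. At E9.5 Tubb3 had a UMI in 154 of 211 cells and Dcx in 27 of 211, while Sox2, a neural progenitor factor, had one in 168 of 211. At E9.5, therefore, the measured markers went against a purely neuronal label, and the selected cells are described there as neuronal and progenitor cells together.

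The levels by distance from the threshold show this gradient. At E9.5 Tubb3 was at 89.8 UPM in the 50 cells with a sum of 4 and at 2304 UPM in the 30 cells with sums of 20 to 49. At E11.5 the same gene went from 309 UPM in the 21 cells with a sum of 4 to 3481 UPM in the 111 cells with 50 or more. Hes5, the Notch effector, ran the other way, from 398 to 85.7 UPM in the E9.5 cells and from 459 to 1.03 UPM in the E11.5 cells. Sox2 was at 377 and 175 UPM and at 243 and 1.55 UPM in the same bins. The bins between did not fall steadily. At E9.5 Sox2 stayed at 302 to 377 UPM up to sums of 10 to 19. Hes5 was there at 218 UPM with sums of 6 to 9 and 287 UPM with sums of 10 to 19. At E11.5 Sox2 was at 479 UPM in the 7 cells with a sum of 5.

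**Figure D1:**
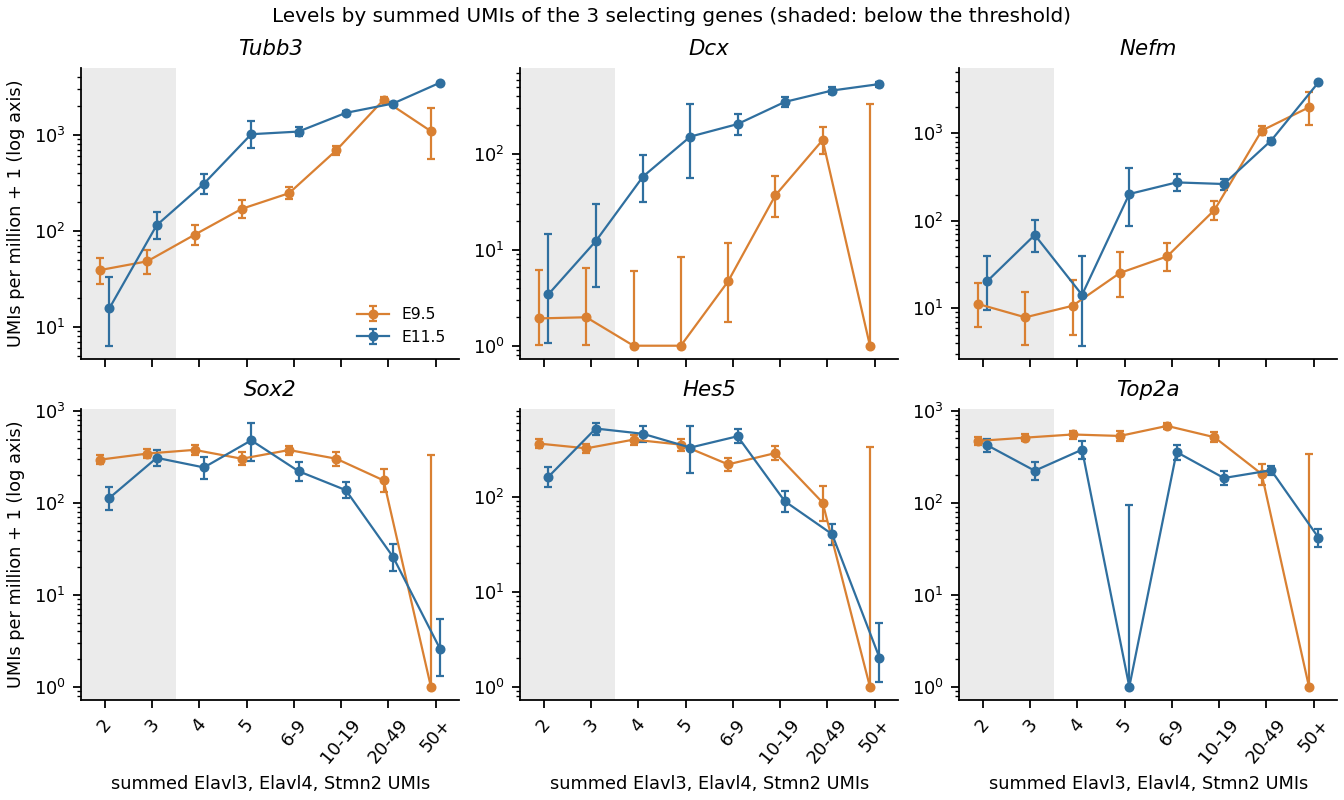
Level of 6 genes (UPM + 1, log axis) against the summed UMIs of Elavl3, Elavl4 and Stmn2 in single cells, at E9.5 (orange) and E11.5 (blue), with 95% Poisson intervals; the shaded bins lie below the threshold and the E9.5 bin of 50 or more holds 1 cell. Tubb3 reached 2304 UPM at E9.5 in the bin of 20 to 49 and 3481 UPM at E11.5 in the last bin, while Hes5 and Sox2 declined.

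Cyclin-dependent kinase inhibitor Cdkn1c, which holds cells out of the cycle, peaked in between at E11.5. It was at 4337 UPM in the cells with sums of 10 to 19 and at 1051 UPM in those with 50 or more.

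Against neural progenitor-type cells of the same library, which carried Sox2 with Pax6, Hes5 or Sox1 and at most 1 UMI of the selecting genes (1213 cells at E9.5, 83 at E11.5), the 2 stages gave different pictures. At E9.5, 296 of 8894 genes were 2-fold or more higher in the selected cells (3.33%) and 162 were lower (1.82%). At E11.5 the counts were 1218 of 6868 (17.7%) and 466 (6.79%). A gene near 0 in the progenitor-type cells reached the minimum of 100 UMIs only by being higher in the selected cells, so the minimum fixed its call, and such genes are left out of the counts of gene lists here and between the stages. Of the other genes, 246 of 8811 at E9.5 were higher (2.79%) and 129 lower (1.46%), and at E11.5 707 of 6294 (11.2%) and 403 (6.4%). Of 8 such genes of neurogenesis and cell cycle exit at E9.5, 7 were higher and 0 lower, with a median log2 ratio of 2.12, and of 13 general neuron genes 9 were higher and 0 lower. At E11.5, 13 of 13 general neuron genes were higher.

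The values of 3 genes show the size of the step; the minimum fixed the calls of Insm1 and Nhlh2 at both stages, so only their levels are described. Insm1, a zinc finger factor of newborn neurons, was at 147 UPM (133 to 162) in the selected E9.5 cells and 3.16 UPM (2.36 to 4.14) in the progenitor-type cells. Nhlh2, a basic helix-loop-helix factor, was at 51.3 against 0.851 UPM, and Srrm4, which drives neuronal microexon splicing, at 93.6 against 7.78 UPM. At E11.5 Insm1 was at 194 against 2.48 UPM and Nhlh2 at 268 against 1.24 UPM.

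The progenitor and cell cycle lists differed between the stages in this comparison. Of 12 progenitor genes at E9.5, 3 were higher and 2 lower, and of 13 cell cycle genes 0 were higher and 1 lower. Sox2 was at 329 UPM (308 to 351) in the selected E9.5 cells and 352 UPM (343 to 362) in progenitor-type cells, and Top2a, a topoisomerase of dividing cells, at 541 and 459 UPM. At E11.5, 7 of 7 progenitor genes and 10 of 13 cell cycle genes were lower in the selected cells. There Sox2 was at 60.1 against 777 UPM and Top2a at 156 against 571 UPM. Because Sox2 and Hes5 also defined the progenitor-type cells, their own values describe the choice. The compared cells were chosen by opposite levels of neuronal genes, and the progenitor-type cells also by progenitor genes. The counts of the neuron and progenitor lists therefore also describe the choice in part.

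The 20 genes that led the selected cells against all other kept cells were listed by the lower bound of the log2 ratio. At E9.5 they included, in that order, Ppp1r17 (51.6 against 0.782 UPM), Nhlh2, Neurod1 (73.5 against 1.29), Neurod4 (124 against 2.29), Insm1, the neurofilament gene Ina (96.1 against 2.18), Tubb3, Btbd17 (428 against 11.6), Onecut2 (128 against 4.01) and the nicotinic receptor gene Chrna3 (36.6 against 1.02). At E11.5 the first 10 were the neuropeptide gene Sst (327 against 1.22 UPM), the glutamate transporter gene Slc17a6 (67.6 against 0.2), the commissural receptor gene Robo3 (72.7 against 0.264), Mir124a-1hg, the host of a neuronal miRNA (44.5 against 0.152), the glutamate receptor gene Grm2 (30.0 against 0.104), the peripheral filament gene Prph (131 against 0.664), Ina (932 against 5.93), Ppp1r1c (146 against 0.824), the LIM factor gene Lhx5 (90.4 against 0.48) and the adhesion gene Cntn2 (126 against 0.712). Ina, Nhlh2 and Ppp1r17 were among the 20 at both stages. These genes lead cells chosen on neuronal UMIs and are a description of the choice.

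Proneural basic helix-loop-helix factors bind E-boxes, so the 250 bases before the start of each gene were searched for CAGATG on either strand (CATCTG on the other). The motif stood before 4409 of 27025 RefSeq genes (16.3%), before 3 of 14 matched leading genes at E9.5 (21.4%), 2 of 13 at E11.5 (15.4%), 5 of 17 matched general neuron genes (29.4%) and 1 of 13 progenitor genes (7.69%). Nhlh2 (chr3:102009895-102010144, plus strand) and Srrm4 (chr5:116591818-116592067, minus strand), 2 leading genes at E9.5 that hold the motif, are shown as examples from RefSeq on GRCm38.p6, 5′ to 3′ toward the start, with the motif in capitals; it begins 127 and 158 bases before the start.
Nhlh2: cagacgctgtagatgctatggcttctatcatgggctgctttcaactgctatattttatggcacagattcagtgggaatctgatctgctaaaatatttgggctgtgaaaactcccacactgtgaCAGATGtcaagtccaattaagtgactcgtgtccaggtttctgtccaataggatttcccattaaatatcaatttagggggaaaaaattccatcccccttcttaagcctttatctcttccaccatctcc
Srrm4: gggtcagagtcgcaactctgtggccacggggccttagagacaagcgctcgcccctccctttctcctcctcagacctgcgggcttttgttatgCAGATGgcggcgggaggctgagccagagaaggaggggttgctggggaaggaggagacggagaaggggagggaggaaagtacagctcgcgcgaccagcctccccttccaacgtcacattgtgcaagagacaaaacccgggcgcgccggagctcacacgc
A match of 6 letters is a description of the sequence and was not tied to binding in these data.

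Splitting the cells by detection of Isl1, Mnx1 and Pou4f1 gave classes of unequal size at each stage. Mnx1, the motor neuron homeodomain factor, was detected without Pou4f1 in 26 cells at E9.5 (12.3%, 8.21 to 17.5) and 29 at E11.5 (7.21%, 4.88 to 10.2). Isl1 and Pou4f1 were detected together in 11 cells at E9.5 (5.21%) and 73 at E11.5 (18.2%). Pou4f1 without Isl1 marked 2 and 21 cells, Isl1 alone 55 (26.1%) and 38 (9.45%), and none of the 3 genes was detected in 117 (55.5%) and 241 cells (60.0%). Mnx1 and Pou4f1 were never detected in the same cell. The limit of 3 counts of the cells is 1.42% at the earlier stage and 0.746% at the later one; it limits cells with UMIs of both genes, not cells that express both.

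**Figure D2:**
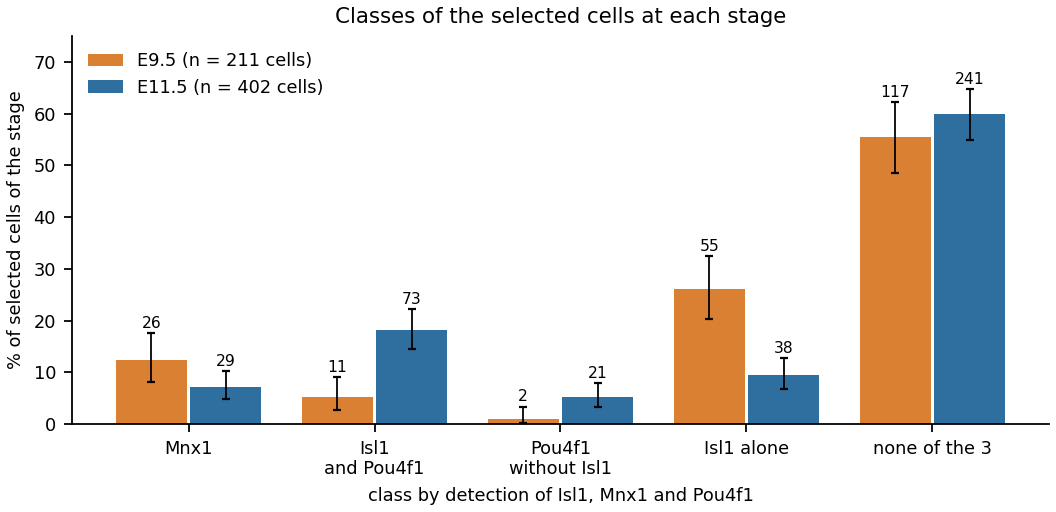
Share of the selected cells of each stage (bars, % with 95% Clopper-Pearson intervals, cell numbers above) in the classes by detection of Isl1, Mnx1 and Pou4f1. Cells with Isl1 and Pou4f1 made up 5.21% of the E9.5 cells and 18.2% of the E11.5 cells, those with Isl1 alone 26.1% and 9.45%.

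Over all selected cells Isl1 had a UMI in 43.1% at E9.5 and 32.3% at E11.5, Mnx1 in 12.3% and 7.21%, and Pou4f1 in 6.16% and 23.4%. Where detection needed 2 UMIs, the shares at E9.5 fell to 6.64% for Mnx1 and 1.42% for Pou4f1, so most Pou4f1 cells of that stage, and with them the class of 11 cells, rested on single UMIs. After each cell was thinned to 5000 UMIs, with 11 and 59 cells too shallow to enter, the same genes stood at 38.5% and 33.5%, 11.5% and 5.54%, and 4.00% and 22.7%. Endothelial-type cells were deeper, with medians of 15838 and 19392 UMIs. Among them Isl1 had a UMI in 33 of 288 cells (11.5%) and 3 of 69 (4.35%), Pou4f1 in 1 of 288 and 0 of 69, and Mnx1 in 0 of 288 and 0 of 69. The share with Pou4f1 was higher at E11.5 at matched depth, and the shares with Isl1 and Mnx1 were lower, by margins whose intervals over all cells overlap (Isl1 36.3 to 50.1% against 27.8 to 37.2%; Mnx1 8.21 to 17.5% against 4.88 to 10.2%). Median depth also differed among the classes, from 7670.5 UMIs (Mnx1) to 19112 (Pou4f1 without Isl1) at E9.5 and from 8495 (none detected) to 20675 (Isl1 and Pou4f1) at E11.5, and its part in the split was not tested.

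The Mnx1 cells at E9.5 carried motor neuron factors beside progenitor genes. Lhx3 and Lhx4, LIM homeodomain partners of Isl1 in motor neurons, were at 172 and 194 UPM, and 18 of the 26 cells had a UMI of Lhx3. Isl1 had a UMI in 25 of 26. Olig2, the factor of the motor neuron progenitor domain, was at 432 UPM with a UMI in 23 of 26, and Neurog2, a proneural factor, at 493 UPM. Sox2 was still at 326 UPM. These cells thus held the progenitor factor and the postmitotic factors side by side.

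In the Mnx1 cells at E11.5 the LIM factors were found in part of the cells, the progenitor genes were near 0 and genes of transmitter and axon were detected. Lhx3 was at 146 UPM with a UMI in 10 of 29 cells and Lhx4 at 161 UPM, while Olig2 was at 9.91 UPM in 1 of 29 cells and Sox2 at 14.9 UPM. Slc18a3, the vesicular acetylcholine transporter, was at 280 UPM with a UMI in 25 of 29 cells, against 44.0 UPM in 6 of 26 at E9.5. Slc5a7, the choline transporter, was at 94.2 UPM in 14 of 29 cells and had 0 UMIs in the E9.5 class, whose floor of 3 UMIs is 13.2 UPM. Slit2, a repellent ligand of axons, was at 1561 against 132 UPM, and the neurotrophin gene Ntf3 at 109 UPM in 19 of 29 cells. Foxp1, a factor of motor columns (459 UPM, 15 cells), and Aldh1a2, a retinoic acid enzyme (255 UPM, 6 cells), were detected in parts of the class.

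The cells with Isl1 and Pou4f1 were unlike at the 2 stages. At E11.5 they carried the genes of dorsal root ganglion neurons. Tlx3, a homeodomain factor of sensory neurons, was at 492 UPM with a UMI in 66 of 73 cells, and Tlx2 at 405 UPM in 65. Ntrk3, the receptor of neurotrophin 3 on proprioceptive precursors, was at 409 UPM in 42 cells, and Runx3 at 143 UPM in 27. Slc17a6 was at 124 UPM in 44 cells. The motor neuron genes Slc18a3, Lhx3 and Lhx4 had 0 UMIs in the class.

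At E9.5 the 11 cells with Isl1 and Pou4f1 had 0 UMIs of Tlx2, Tlx3, Ntrk3 and Runx3. They had Phox2a at 290 UPM (6 cells), Nkx6-1, a ventral progenitor factor, at 423 UPM (10 cells) and Slc18a3 at 157 UPM (7 cells). The measured genes therefore go against a sensory name for this class at E9.5. Pou4f1 itself was at 116 UPM there, against 430 UPM at E11.5, and the doublet caller marked 2 of the 11 cells.

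Comparing the Mnx1 cells with the Isl1 and Pou4f1 cells at E9.5, 40 of 1160 genes were 2-fold or more higher (3.45%) and 27 lower (2.33%). These counts include genes with few UMIs in 1 class, whose calls the minimum of 50 UMIs fixed. Among them are Olig2, Neurod1, Ccnd1, Gap43 and Meg3, whose values are given only as a description. Olig2 was at 432 against 41.4 UPM (log2 ratio 3.38, 2.11 to 5.03), Neurod1 at 286 against 49.7 UPM and the cyclin gene Ccnd1 at 348 against 49.7 UPM. In the other direction stood the growth cone gene Gap43 (44.0 against 497 UPM), Nefl (189 against 1020) and Meg3, a noncoding RNA (48.4 against 588). Nefm at 410 against 1716 UPM and Ebf1 at 291 against 1252 UPM turned the other way, to log2 ratios of 1.44 and 0.23, when detection needed 2 UMIs. Under that setting 8 of the 20 leading genes had a value, of which 3 lay within the interval, 3 outside it and 2 reversed; the other 12 had too few UMIs. Without the doublet calls, 15 of 19 lay within the interval and 4 outside it in the same direction.

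At E11.5 the same comparison gave 349 of 5197 genes higher in Mnx1 cells (6.72%) and 445 lower (8.56%). Slc18a3, the peptide gene Uts2b (223 UPM), Lhx4 and Lhx3 had 0 UMIs in the Isl1 and Pou4f1 cells, which put their log2 ratios at least at 7.04, 6.71, 6.24 and 6.10 against a floor of 3 UMIs over that class. Ecel1, a peptidase of motor axons, was at 387 against 2.13 UPM, Slit2 at 1561 against 25.6 UPM (log2 ratio 5.93, 5.45 to 6.46) and the guidance receptor gene Epha4 at 320 against 6.40 UPM. Tlx3, Tlx2, Kcnmb2, Shox2, Runx3 and Hmx1 had 0 UMIs in the Mnx1 cells, with 124 to 492 UPM in the other class. Genes at or near 0 UMIs in a class passed the minimum of 50 UMIs only through the other class, so their calls were fixed and their levels are a description. Ppp1r17 was at 2.48 against 509 UPM.

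Within the Isl1 and Pou4f1 cells and the other cells at E11.5, the sensory genes overlapped in part. Of all 402 cells, 98 had Tlx3 and 100 had Ntrk3, with 54 in common. Of the 30 cells with Runx3, 26 had Ntrk3.

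Cells with Isl1 alone at E11.5 included cells with genes of sympathetic neurons. Dbh, the enzyme that makes noradrenaline, was at 1671 UPM with a UMI in 23 of 38 cells, and Th, the first enzyme of the pathway, at 512 UPM in 20. Phox2a was at 984 UPM (24 cells), Hand2 at 383 UPM (24), Gata3 at 211 UPM (21) and the vesicular monoamine transporter Slc18a2 at 351 UPM (23). Over all selected E11.5 cells, 24 carried Dbh, and of these 24 carried Phox2a, 23 Hand2, 21 Gata3 and 20 Th. Tlx3 (20 cells) and Ntrk3 (20 cells) were also detected in the class.

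Phox2a was also detected at E9.5. There 36 cells had Phox2a, 29 of them with Isl1, while Hand2 had a UMI in 4 of all 211 cells and Dbh in 2, of which 1 had Phox2a. Nkx6-1 had a UMI in all 36 of the Phox2a cells. Some of their Hox levels, looked up after other values were seen, differed from those of the 175 selected cells without Phox2a. Hoxb4 was at 323 UPM (262 to 394) with Phox2a against 128 (114 to 143) without it, and Hoxb2 at 230 against 98.0 UPM. Hoxc8 had a UMI in 2 of 36 against 37 of 175 cells, and Hoxa9 in 0 of 36 against 17 of 175, at median depths of 7775 and 10708 UMIs. Hoxb9 was at 156 against 157 UPM, and Hoxc6 at 39.9 (20.6 to 69.8) against 52.2 (43.6 to 62.0). The Hox genes thus did not all differ with Phox2a, and the axial origin of these cells was not tested. At E11.5 Hoxc8 had a UMI in 19 of the 30 cells with Phox2a and Hoxc9 in 24.

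Interneuron factors were found at E11.5. The 21 cells with Pou4f1 and no Isl1 had Barhl2 at 283 UPM (5 cells), Lhx2 at 141 UPM (5), Lhx9 at 109 UPM (5), Robo3 at 430 UPM (11) and Uncx at 125 UPM (11); Barhl2, Lhx2 and Lhx9 mark the dorsal commissural population. Of the 13 cells with Barhl2 at E11.5, 7 had Robo3. Barhl2 had 0 UMIs in every E9.5 class.

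The 241 cells with none of the 3 genes held the inhibitory neurons. Gad2, the enzyme that makes GABA, was at 101 UPM with a UMI in 72 cells, Pax2 at 106 UPM in 71, Lhx1 at 344 UPM in 134, Lhx5 at 184 UPM in 109 and En1, the factor of V1 interneurons, at 74.4 UPM in 43. Among all 402 cells, Gad2 was in 72 and Slc17a6 in 99, with 0 cells carrying UMIs of both, for which the limit of 3 counts is 0.746%. Lhx1 and Lhx5 shared 98 of 146 and of 114 cells, and En1 and Gad2 shared 28 of 45 and of 72. Gata3 and Tal1, of V2b neurons, shared 19 of 44 and of 20.

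At E9.5 the 117 cells with none of the 3 genes were of another kind. Tubb3 was at 123 UPM there, Sox2 at 335, Hes5 at 377 and Foxa2, a floor plate factor, at 60.9 UPM, and Gad2 and Slc17a6 had 0 UMIs in all 211 cells.

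**Figure D3:**
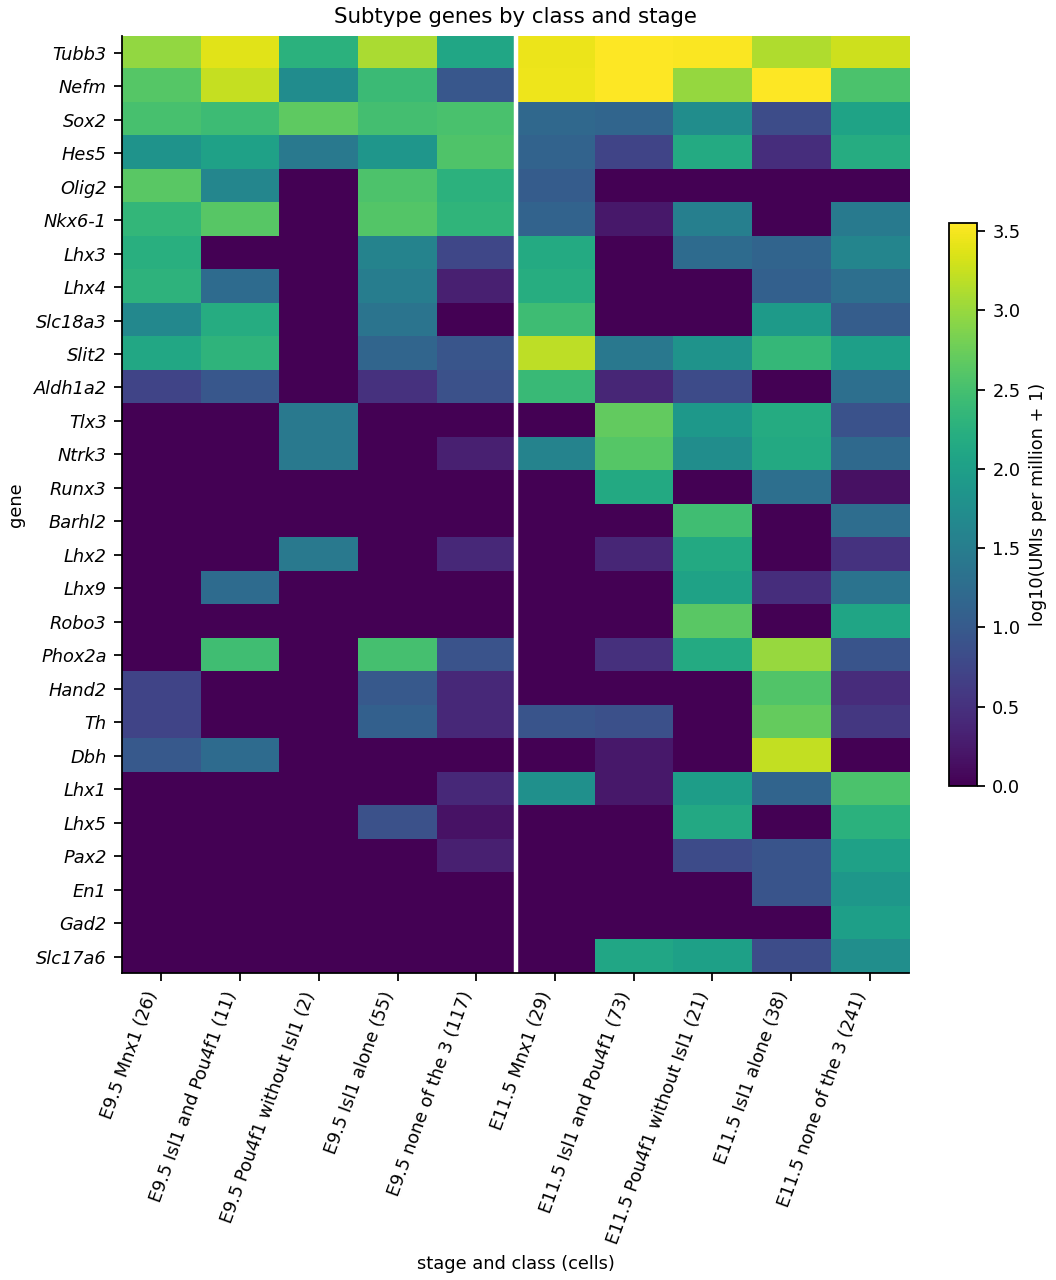
Level of 28 genes (colour, log10 of UPM + 1) in the classes of each stage, cell numbers in brackets, with E9.5 left and E11.5 right of the white line. At E11.5 Tlx3 stood at 492 UPM in cells with Isl1 and Pou4f1 and Dbh at 1671 UPM in cells with Isl1 alone; at E9.5 Olig2 and Nkx6-1 were at 432 and 220 UPM in Mnx1 cells.

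Between the stages, 1473 of 7711 genes were 2-fold or more higher at E11.5 (19.1%) and 619 were lower (8.03%), with a median log2 ratio of 0.15 over all genes that passed. The count minimum fixed 488 genes as higher and 84 as lower, and of the other 7139 genes 985 were higher (13.8%) and 535 lower (7.49%). Of 22 general neuron genes among these, 21 were higher and 0 lower (median 3.15). Tubb3 went from 476 UPM (450 to 502) in the E9.5 cells to 2443 (2399 to 2488) in the E11.5 cells, with Nefm at 156 and 1901 UPM, Nefl at 84.6 and 1753 UPM, Dcx at 21.1 and 436 UPM, and Gap43 at 49.8 and 954 UPM. Sncg, a synuclein of peripheral and motor neurons, was at 1.79 and 830 UPM (log2 ratio 8.86, 7.63 to 10.5), a call that the minimum fixed.

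In the lists of single neuron classes the minimum fixed most calls. It fixed 11 of 16 sensory neuron genes, 6 of 7 dorsal interneuron genes, 7 of 8 ventral interneuron genes, 6 of 9 sympathetic and autonomic genes and 4 of 5 transmitter genes as higher, so their counts are not read here. Of 10 motor neuron genes that it left free, 3 were higher (Nrg1, Slc18a3 and Isl1) and 0 lower, of which Slc18a3 and Isl1 turned among the cells with 20 or more UMIs of the selecting genes, given below. Of 23 axon guidance genes 11 were higher and 1, Ntn1, lower. Of 9 genes of ion channels and synapses 7 were higher and 0 lower, of 14 genes of RNA binding and splicing 7 were higher and 4 lower, and of 19 of neurogenesis 7 were higher and 3 lower. Insm1, at 147 and 194 UPM, and Srrm4, at 93.6 and 113 UPM, stayed inside the 2-fold rule.

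Among the genes of neurogenesis the calls ran in both directions. Neurog2, a proneural factor, was at 198 and 82.5 UPM, Neurod4 at 124 and 52.2 UPM and the Notch ligand gene Dll1 at 100 and 42.2 UPM, the 3 genes called lower. Hes6, an inhibitor of Hes1, was at 153 and 359 UPM, Neurod1 at 73.5 and 148 UPM, and Ebf1, a factor of migrating young neurons, at 149 and 851 UPM, all called higher.

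The splicing and RNA-binding genes were called in both directions. Rbfox2, Rbfox3, Nova1, Elavl2, Celf2, Celf3 and Celf4, regulators of neuronal RNA, were higher at E11.5, with Rbfox2 at 71.3 and 275 UPM, Nova1 at 11.8 and 53.1 UPM and Celf4 at 11.8 and 149 UPM. Lower were Ptbp1, the splicing repressor of neural exons, at 145 and 51.8 UPM, Rest, the repressor of neuronal genes, at 44.1 and 21.3 UPM (log2 ratio -1.05, -1.44 to -0.66), Igf2bp1 at 355 and 129 UPM, and Lin28b, given below. Among the cells with 20 or more UMIs of the selecting genes 4 of 11 (Rbfox2, Rbfox3, Nova1 and Celf4) were higher and 1, Igf2bp1, lower, while Elavl2 (351 and 487 UPM), Celf3 (144 and 128 UPM) and Ptbp1 (82.5 and 44.3 UPM) had no call and Rest and Lin28b were under the minimum.

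In axon guidance, the semaphorin receptor gene Nrp1 was at 20.4 and 216 UPM, the Slit receptor gene Robo1 at 13.3 and 80.3 UPM and the ligand gene Slit2 at 26.9 and 217 UPM, all called higher. Ntn1, a netrin of the ventral neural tube, was at 24.7 and 11.3 UPM and called lower. The minimum fixed the calls of the netrin receptor genes Dcc, at 5.74 and 27.5 UPM, and Unc5c, at 3.58 and 39.0 UPM, and of Slit1, at 24.4 and 7.25 UPM, and the chemokine receptor gene Cxcr4, at 32.3 and 7.46 UPM. Robo2 at 82.1 and 71.4 UPM and Epha4 at 45.9 and 62.2 UPM had no call. Among the cells with 20 or more UMIs of the selecting genes 5 of 16 guidance genes were higher and 1, Robo2, lower, and Slit2 (151 and 276 UPM) and Robo1 (68.7 and 88.9 UPM) had no call.

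Of the synaptic genes, the fusion protein Snap25 was at 11.5 and 114 UPM and called higher. The glutamate receptor subunit Gria2, at 1.08 and 73.5 UPM, and the vesicle calcium sensor Syt1, at 1.08 and 67.1 UPM, passed the minimum only through the E11.5 cells, which fixed their calls. The nicotinic receptor genes Chrna3, at 36.6 and 42.8 UPM, and Chrna4, at 21.5 and 30.5 UPM, stayed within 2-fold. Both were lower at E11.5 among the cells with 20 or more UMIs of the selecting genes.

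Lists of the dividing progenitor were lower. Of 13 progenitor genes that the minimum left free 7 were lower and 1, Fabp7, higher (median -1.10), and of 13 cell cycle genes 12 were lower and 0 higher (median -1.69). Nkx6-1 was at 248 and 14.9 UPM, and the cyclin gene Ccnd2 at 1088 and 121 UPM. Olig2, at 230 UPM (213 to 249) in the E9.5 cells and 0.852 (0.232 to 2.18) in the E11.5 cells, and Sox3, at 119 and 8.10 UPM, passed only through the E9.5 cells, which fixed their calls. Prtg, a receptor of the immunoglobulin superfamily in early neural cells, was at 477 and 4.90 UPM, and the glucose transporter gene Slc2a1 at 426 and 20.9 UPM. Lin28a and Lin28b, RNA-binding proteins that block let-7 maturation, were at 50.9 and 2.13 UPM and at 57.7 and 13.4 UPM; the minimum fixed the calls of Lin28a and Prtg. Ccnd1 was the cell cycle gene without a call, at 271 and 451 UPM.

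**Figure D4:**
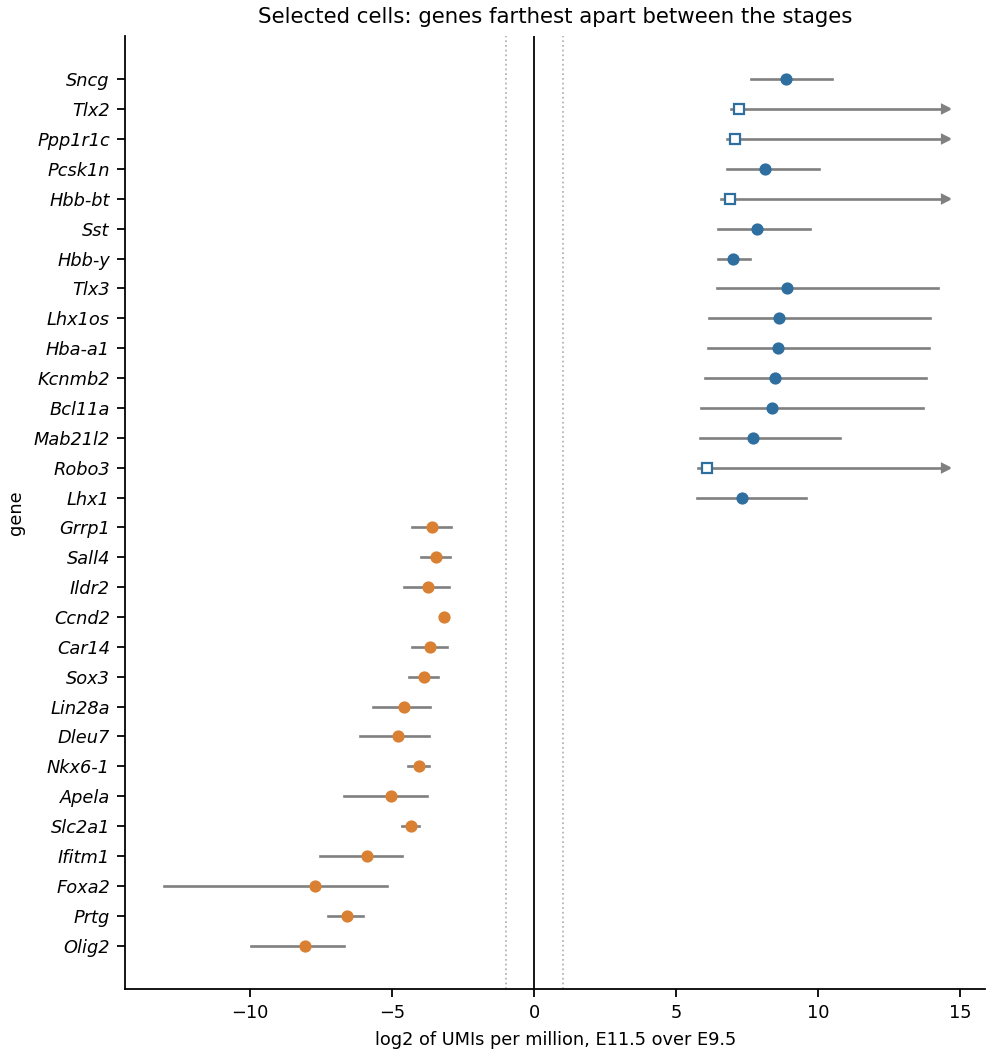
Log2 ratio of UPM, E11.5 over E9.5, of the 15 genes highest and the 15 lowest by the bound of the interval (lines, 95%); open squares are genes with 0 UMIs at E9.5, set at the floor of 3 UMIs, whose intervals run on to the right. Olig2 lies at -8.08 and Sncg at 8.86; the genes Hbb-bt, Hbb-y and Hba-a1 on the right encode globins, and 1 cell gave 584 of 597, 5566 of 5780 and 619 of 647 of their UMIs at E11.5.

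The stages were also compared farther from the threshold. Among cells with 20 or more UMIs of the selecting genes, 31 at E9.5 and 242 at E11.5, a comparison added after the data were seen, 842 of 5390 genes were higher (15.6%) and 177 lower (3.28%), or, of 4951 whose call the minimum did not fix, 414 (8.36%) and 166 (3.35%). Among the latter 17 of 24 general neuron genes were higher and 1, Nhlh1, lower, and Tubb3 was at 2258 and 2893 UPM. Of 12 cell cycle genes 1 was higher and 3 lower, and of 5 progenitor genes 0 were higher and 0 lower. Of 17 neurogenesis genes 0 were higher and 5 lower, including Neurog2, Neurod4 and Dll3. Of 9 sensory genes 5 were higher and 0 lower. Of 8 motor neuron genes 2, Foxp1 and Prph, were higher and 2, Slc18a3 (110 and 52.3 UPM) and Onecut2 (735 and 263 UPM), lower, while Isl1 was at 705 and 584 UPM. Sncg was at 17.2 and 1118 UPM. Prtg (357 and 3.84 UPM), Nkx6-1 (430 and 12.4 UPM) and Slc2a1 (144 and 18.0 UPM) were lower, with calls that the minimum fixed.

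Hox genes differed between the stages in both directions. Of 20 whose call the minimum did not fix, 8 were higher at E11.5 and 2, Hoxd4 and Hoxa2, lower. Hoxc8 was at 34.1 UPM (27.6 to 41.6) and 230 (216 to 244), Hoxa9 at 8.96 and 253 UPM and Hoxc9 at 25.1 and 230 UPM. Hoxb9 was at 157 and 296 UPM, Hoxd4 at 129 and 54.3 UPM and Hoxb4 at 149 and 100 UPM. Among the cells with 20 or more UMIs of the selecting genes 4 of 15 such Hox genes were higher. There 2 were lower, Hoxd4 and Hoxb4 (299 and 87.4 UPM). The median log2 ratio was 0.07 in that comparison and 0.74 over all selected cells. In all other kept cells of the libraries Hoxc8 was at 39.7 and 201 UPM, Hoxa9 at 19.4 and 66.7 UPM and Hoxc9 at 19.2 and 85.0 UPM, while Hoxb9 was at 125 and 29.6 UPM and Hoxb4 at 71.9 and 25.0 UPM. The differences in Hoxc8, Hoxa9 and Hoxc9 thus had the same direction in the rest of the libraries, and that in Hoxb9 the opposite one. Hoxc10 was detected in 112 of 402 cells at E11.5 and in 0 of 211 at E9.5, for which the limit of 3 counts is 1.42% of cells with a UMI.

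**Figure D5:**
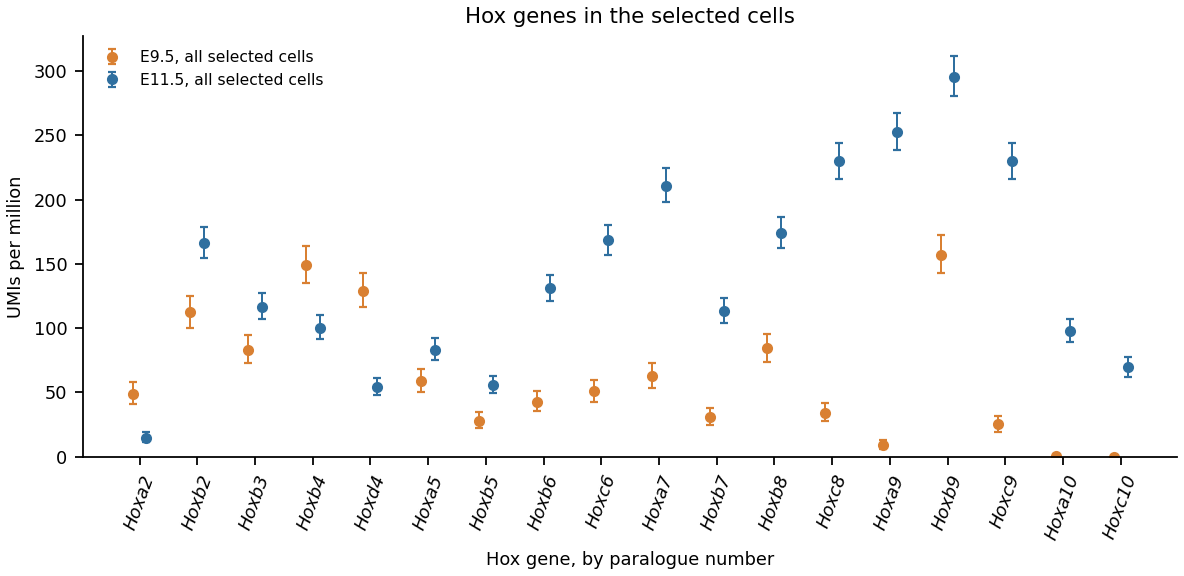
Level (UPM with 95% Poisson intervals) of 18 Hox genes, in order of paralogue number, in all selected cells at E9.5 (orange) and E11.5 (blue). Hoxc8 stood at 34.1 UPM in the E9.5 cells and 230 UPM in the E11.5 cells, and Hoxd4 at 129 and 54.3 UPM.

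Markers of other cell types were also measured in the selected cells. The summed level of the neural crest and glia list was 58.8 UPM at E9.5 and 358 at E11.5 (Fabp7 most, 41.2 and 257 UPM), of the somite and mesenchyme list 58.8 and 295 UPM, of muscle 10.0 and 41.6 UPM, of endothelium 10.0 and 3.62 UPM and of epithelium 16.8 and 2.56 UPM. All other kept cells had 1083 and 2271 UPM of the mesenchyme list. The blood list was at 20.8 and 2146 UPM, led by Hbb-y at 9.68 and 1232 UPM, and 1 E11.5 cell, of the class with none of the 3 genes, had over 1% globin UMIs. Without that cell Hbb-y was at 46.0 UPM at E11.5 (log2 ratio to E9.5 2.25, 1.67 to 2.88), the stage counts were 1471 higher and 623 lower of 7695 genes, and of 28 named genes with a value, 27 lay within the interval of the reported ratio. The part of the other lists in the stage differences was not tested. The doublet caller marked 6 of 211 selected cells (2.84%) at E9.5 and 30 of 402 (7.46%) at E11.5.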

How the data were processed

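Single-cell RNA libraries of inter-limb somites were counted by the authors with Cell Ranger 3.0.1 against mm10, per the submitters' processing notes, and the raw UMI counts were deposited as 1 matrix per stage. Counts were analysed as deposited, without integration. Cells with at least 200 and fewer than 6500 genes and under 15% mitochondrial UMIs were kept, after the study's filter. UMIs were summed over cells and divided by the class total (UPM). Intervals were exact: Poisson for levels, ratio of Poisson counts for log2 ratios and Clopper-Pearson for shares (95%), with the limit for a share of 0 set at 3 counts of the cells. Genes needed 100 UMIs in the compared classes (50 for the Mnx1 comparison), and a gene at 0 was set at 3 UMIs. Calls meant a fold of 2 or more. With 1 library per stage no test was run.

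Genes were named by rule: the 20 leading genes of the selected cells at each stage by the lower bound against all other kept cells, the 15 highest and 15 lowest between stages, and the 10 highest and 10 lowest between Mnx1 cells and cells with Isl1 and Pou4f1, besides the genes of the lists. Genes of the pairwise counts were chosen with values already in view. A few genes that these rules name are not reported here. The members and lists were chosen with earlier results of these data known. Doublets were called with Scrublet in scanpy 1.11.5; its automatic threshold marked 0.0098% of E11.5 barcodes and had not worked, so the top 8% of scores were marked at both stages, and marked cells were left out only as an alternative. On simulated counts of the stage comparison, 100% of 199 genes changed 4-fold were called, with 0.0266% of unchanged genes. That last share was highest, 1.37%, for the Mnx1 cells over the Isl1 and Pou4f1 cells at E11.5. The simulated counts held Poisson error only, without spread between cells, embryos or libraries. They therefore give no rate of false calls between the real libraries. Promoter sequences came from RefSeq (GRCm38.p6) and positions from GENCODE on GRCm38. Python 3.11.15, NumPy 2.4.6, SciPy 1.17.1, pandas 2.3.3 and matplotlib 3.10.9 were used. Alternatives changed the threshold, exclusions, depth, count minimum, detection limit, doublets and the Tubb3 requirement; those on cells near the threshold, on globin and on genes whose call the count minimum fixed were added after seeing the data.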

Additional observations from a re-analysis of the deposited data

Results flagged for a closer look

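In the Mnx1 cells over the cells with Isl1 and Pou4f1, 10 genes had log2 ratios past 2-fold in opposite directions at E9.5 and E11.5. The 11 cells with Isl1 and Pou4f1 at E9.5 rested mostly on single Pou4f1 UMIs. They had 0 UMIs of Tlx2, Tlx3, Ntrk3 and Runx3, so the 2 stages compare unlike classes. Btbd17 was at 1.50 and -3.11, Btg2 at 1.09 and -1.33, Ccnd1 at 2.81 and -2.78, D930028M14Rik at 2.28 and -1.50, and Gadd45g at 1.40 and -1.35. Neurod1 was at 2.52 and -3.74, Neurod4 at 1.35 and -1.45, and Rrm2 at 1.83 and -2.52. Crmp1 (-1.22 and 1.11) and Meg3 (-3.60 and 2.75) went the other way. Ccnd1 had 0 UMIs in the E11.5 Mnx1 cells, so its second value is set at the floor.

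In the selected cells over the neural progenitor-type cells, 8 of the listed or named genes had such opposite ratios. Aldh1a2 was at -2.91 at E9.5 and 4.66 at E11.5, Hoxa9 at -1.23 and 1.04, and Notch1 at 1.42 and -1.96. The globin genes Hba-a1 (-6.18 and 4.80), Hba-a2 (-4.53 and 3.64), Hba-x (-4.15 and 4.74), Hbb-bh1 (-4.92 and 4.05) and Hbb-y (-4.52 and 4.47) also turned, and 1 selected cell at E11.5 had over 1% globin UMIs. Without that cell, a setting added after the data were seen, the E11.5 values were 0.28 for Hba-a1, 0.12 for Hba-a2, -0.44 for Hba-x, 0.28 for Hbb-bh1 and -0.28 for Hbb-y, all with intervals that include 0, so none of these 5 genes was past 2-fold at E11.5. The count minimum fixed the calls of Hba-a1, Hba-a2 and Hbb-bh1 at both stages, and that of Aldh1a2 at E11.5. There Aldh1a2 passed the minimum only through the selected cells, so its E11.5 ratio is given only as a description. With 1 library per stage these differences between stages were not tested.

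Outside the cell filters, 8 barcodes at E9.5 and 18 at E11.5 met the rest of the rule and were not used.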

How the results depend on the processing

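No paired analysis was possible because each stage had 1 library, so the stages share fewer than 2 replicate numbers. The share of selected cells at E9.5 (2.14%) was 2.93% from a sum of 3, 1.29% from 6, 2.83% without exclusions, 1.12% thinned and 1.56% with Tubb3 required; at E11.5 (4.19%) it was 4.79% without exclusions and 3.61% thinned. The neuron list at E9.5 summed to 1806 UPM, 2492 with Tubb3 and 8382 with 20 or more UMIs of the selecting genes, and at E11.5 to 15859, 16705 and 19807. The progenitor list summed to 2994 UPM at E9.5, 2851 and 1828 under these settings, and to 2074, 1939 and 1463 at E11.5. The stage counts (1473 higher, 619 lower, or 19.1% and 8.03% of 7711) were 639 and 288 thinned, 2877 and 1016 from 20 UMIs, 3677 and 1452 with no minimum, and 616 and 311 from 300 UMIs. They were 185 and 145 within Mnx1 cells and 335 and 75 within Isl1 and Pou4f1 cells. With 20 or more UMIs of the selecting genes they were 842 and 177, or 15.6% and 3.28% of 5390. Fewer cells or UMIs leave fewer genes to count. The number of genes tested changed with the setting, so these counts and those below do not by themselves show a change in the share called. Against progenitor-type cells at E9.5 (296 and 162) the counts were 743 and 467 from 20 UMIs, 2272 and 582 with no minimum, 474 and 337 as a mean over cells, and 260 lower with Tubb3; at E11.5 (1218 and 466) they were 2358 and 1044 from 20 UMIs and 2521 and 2462 with no minimum. The E9.5 share with Isl1 (43.1%) was 61.4% from a sum of 6 and 56.5% with Tubb3, with Mnx1 (12.3%) 6.64% from 2 UMIs, and with Pou4f1 (6.16%) 1.42%. Mnx1 cells over Isl1 and Pou4f1 cells at E9.5 (40 and 27) had 7 lower from 2 UMIs and 193 and 147 from a minimum of 20 UMIs, and at E11.5 (349 and 445) 805 and 931. Nefm and Ebf1 at E9.5 turned from -2.07 and -2.11 to 1.44 and 0.23 when detection needed 2 UMIs. Another count minimum leaves a gene's own ratio as it is. Of 405 values of named genes under the other alternatives, 304 lay within the interval of the reported value, 99 outside it in the same direction and 2 reversed; the cause was not tested. Of the stage genes with a value, 3 of 19 stayed within it among cells with 20 or more UMIs of the selecting genes, 0 of 9 within Isl1 and Pou4f1 cells, 1 of 4 within Mnx1 cells and 12 of 21 thinned.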
